A study of Rattus norvegicus with 2 samples.

Results

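Transcripts of the TGF-beta pathway were examined in rat urine, through 10 genes chosen by symbol: the ligands Tgfb1, Tgfb2 and Tgfb3, the receptors Tgfbr1 and Tgfbr2, the signal carriers Smad2, Smad3 and Smad4, and the inhibitors Smad7 and Skil. A number-only gene ID was found for 9 of them among 16329 annotated genes. No such ID was found for Skil, so its level was not analysed and only its promoter is described below. Of the 9 genes, 8 had an FPKM of at least 1 in either library. Tgfb3 was the gene under this limit.

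The urine came from Sprague Dawley rats aged 8 weeks. In the UUO rats the right ureter was ligated, and the WT library comes from sham-operated rats whose ureters were not tied. According to the methods, urine was drawn from the ureter by catheter 2 weeks later in both groups, so that UUO urine is what the obstructed kidney made after the blocked urine had been let out. There was 1 library per group, and the number of rats behind each is not stated, so every difference is one between 2 libraries, with no measure of its error.

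TGF-beta is secreted in a latent form, and the active ligand binds the type II receptor, which recruits and switches on the type I receptor. That receptor phosphorylates Smad2 and Smad3, which join Smad4 and enter the nucleus to act on target genes. Smad7 and Skil (also called SnoN) are induced by the pathway and restrain it. In the kidney the pathway is known for driving matrix deposition and scarring. The study compared urine RNA to look for markers of kidney fibrosis, and linked its lncRNAs to this pathway.

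Urothelial and tubular markers were present in both libraries. Of 7 urothelial markers, 6 were detected (FPKM of at least 1) in WT and 7 in UUO urine, with summed FPKM of 1174 and 1691. Of 9 kidney tubule markers, 9 and 8 were detected, with summed FPKM of 211.8 and 132. These sums are on the deposited scale. The median log2 difference of the tubule markers was -0.50, beside -0.81 over annotated genes detected in both libraries. Markers of blood cells differed more. The 10 leukocyte markers summed to 9.61 in WT against 168 in UUO urine, and 8 of them, Ptprc (CD45) included, were listed at 0 in WT. All 5 platelet markers were listed at 0 in WT and summed to 217 in UUO urine. Pf4 alone had 182 of this sum, and Gp9 was nearly 0 there too. The 4 red-cell markers summed to 2454 and 77661. Fibroblast markers were low in both, with a sum of 11.9 in WT against 19.3 in UUO urine over 6 genes, of which 4 were listed at 0 in WT and 2, Dcn and Col1a1, also stand in the pathway lists. In bulk urine, fewer cells of a type and less RNA per cell cannot be told apart. The part of these cells in the results below was not tested.

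The FPKM steps gave a normalising total of 2116000 fragments for WT and 2444000 for UUO urine. At these totals 1 fragment on a transcript of 2000 bases corresponds to 0.252 FPKM in WT against 0.224 FPKM in UUO urine, and 3 fragments to 0.757 and 0.673. These figures cover counting error only. Zeros were common: 50.9% of annotated genes were listed at 0 in WT against 26.7% in UUO urine. A value of 0 can be a failed estimate, and Gapdh, which every cell uses, had only 0.406 FPKM in WT against 0.367 FPKM in UUO urine.

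The inhibitor Smad7 and the type I receptor Tgfbr1 were the members at least 2-fold higher in UUO urine, and Smad4 was the member at least 2-fold lower. These are 2 and 1 of the 8 members over the limit, and Tgfbr1 passed it only through the UUO library. Among 9831 annotated genes over the same limit, 25.6% were at least 2-fold higher and 36.6% at least 2-fold lower, so the members' counts are near the background and are not a result about the pathway as a whole. The annotated genes detected in both libraries were themselves lower in UUO urine, with a median log2 difference of -0.81 over 7210 genes. Each member is therefore also given relative to this median.

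**Figure D1:**
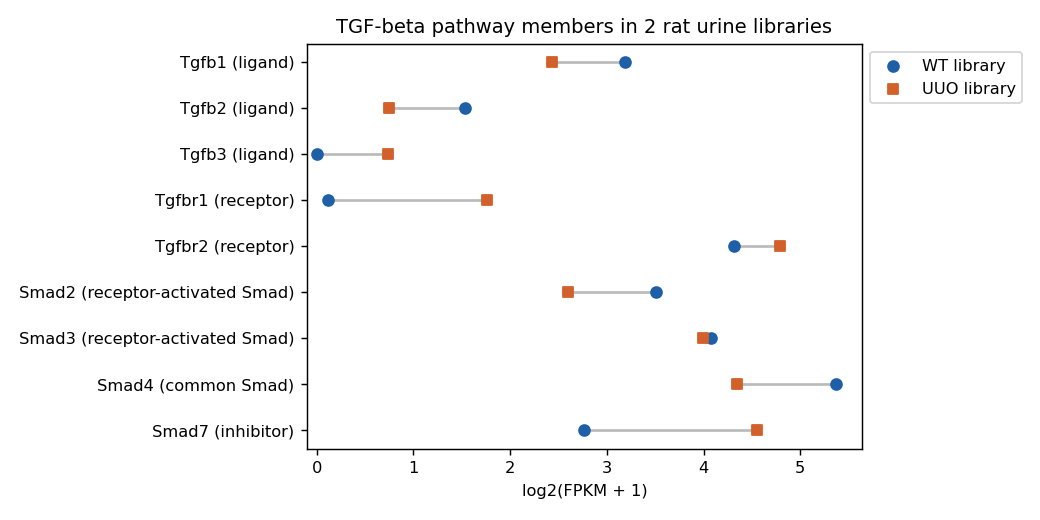
Level of each of the 9 members on the log2(FPKM + 1) scale, with a circle for the WT library and a square for the UUO library, joined by a line. There is 1 library per group and no error can be drawn. The longest lines are those of Smad7 and Tgfbr1, with UUO to the right, while the symbols of Smad3 nearly coincide.

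Tgfb1, the ligand best known in fibrosis, had 8.12 FPKM in WT against 4.40 FPKM in UUO urine. The UUO library was lower, by 0.76 on the log2(FPKM + 1) scale, which lay 0.05 above the median of annotated genes. Its level stood at percentile 44.2 of the 9831 genes in WT and at percentile 36.5 in UUO urine. Tgfb2, another isoform that signals through the same receptors, had 1.89 FPKM in WT against 0.684 FPKM in UUO urine. Its log2 difference was -0.78, and the UUO value is about that of 3 fragments on a transcript of 2000 bases. Tgfb3, the remaining isoform, had 0.664 FPKM in UUO urine and was listed at 0 in WT. No fold is given for it. Tgfb1 held 81.1% of the summed FPKM of the ligands in WT and 76.5% in UUO urine, shares that do not depend on the scaling of a library.

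The study measured Tgfb1 in kidney by qRT-PCR, and its primers are shown because they mark the stretch read there. They are printed 5′ to 3′ in lower case.
Tgfb1 forward: acctgcaagaccatcgacatg
Tgfb1 reverse: cgagccttagtttggacaggat
The deposited urine value is for the whole gene, and not for the stretch between these primers.

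The receptors differed in level and in the size of their difference. Tgfbr2, the type II receptor that binds the ligand, had 18.9 FPKM in WT against 26.7 FPKM in UUO urine, at percentiles 64.7 and 86.4. Its log2 difference was 0.48, or 1.29 above the median of annotated genes. Tgfbr1, the type I receptor kinase, had 0.0846 FPKM in WT against 2.40 FPKM in UUO urine. The WT value is under that of 1 fragment on a transcript of 2000 bases, so no ratio is given, and the log2 difference of 1.65 rests on a WT level that is not told apart from 0 at this depth. Both receptors were thus higher in UUO urine, but only Tgfbr2 was detected in both libraries.

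Tgfbr1 lies on chromosome 5, from 67575639 to 67639194 in the deposited table (rn5). Its RefSeq promoter on GRCr8, chr5:66449148-66449447 on the plus strand, is shown because Tgfbr1 and Smad7 were the members counted as higher. It runs from 250 bases before the gene's start to 50 after it, and capitals mark each GC box (GGCGGG or its reverse complement).
Tgfbr1 promoter: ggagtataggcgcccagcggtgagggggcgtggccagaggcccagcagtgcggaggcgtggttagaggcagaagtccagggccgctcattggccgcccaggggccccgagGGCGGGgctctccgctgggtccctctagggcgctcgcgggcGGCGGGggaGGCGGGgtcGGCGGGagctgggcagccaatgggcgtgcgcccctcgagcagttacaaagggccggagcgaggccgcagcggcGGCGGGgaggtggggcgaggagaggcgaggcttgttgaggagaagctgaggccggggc
It holds 5 GC boxes, the Smad7 promoter 2 and the Tgfbr2 promoter 0. Skil has 5, and both listed promoters of Smad2, a gene lower in UUO urine, have them too, with 1 and 2. GC boxes were in 5 of the 11 promoters of the 10 genes, while 32.0% of all 33469 promoters of this length hold at least 1. The Smad3 motif that the study searched for, CAGACA on either strand, was in 0 of the 11 and in 21.1% of all promoters. The study searched a longer stretch, upstream of its up-regulated lncRNAs, so this count is not comparable with its own. The shorter Smad half-site GTCT, on either strand and contained in the longer motif, was in 8 of the 11, and in 88.8% of all. These matches describe letters in a short window and say nothing of binding.

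The receptor-activated Smads were not higher in UUO urine on the deposited scale. Smad3 had 15.9 FPKM in WT against 14.9 FPKM in UUO urine, a log2 difference of -0.08, which is 0.73 above the median of annotated genes. Its sign turned with the scaling, as given for all members further on. Smad2 had 10.4 FPKM in WT against 5.07 FPKM in UUO urine. The log2 difference was -0.91, or 0.10 below that median. A second entry of the table, an NM accession that RefSeq lists as Smad2, went the other way, with 1.52 in WT against 4.38 in UUO urine. Summed over both Smad2 entries, the value was 11.9 FPKM in WT against 9.45 in UUO urine, a log2 difference of -0.30. The division of fragments between these entries is uncertain.

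Smad4, which joins every receptor-activated Smad, was the most abundant member in WT urine. Its value was 40.3 FPKM in WT against 19.4 in UUO urine. The log2 difference of -1.02 lies just past the 2-fold limit, and relative to the median of annotated genes it was -0.21. In rank Smad4 hardly moved, from percentile 81.9 in WT to percentile 80.4 in UUO urine. The genes nearest to Smad4 over the 2 libraries, out of 15818 protein-coding genes outside the lists, were Ube2l3, a ubiquitin-conjugating enzyme (39.9 in WT and 19.5 in UUO), Ubn1, a histone chaperone subunit (39.7 and 19.4), and Tmem223 (39.6 and 19.3). Their Euclidean distances on the log2(FPKM + 1) scale were 0.018, 0.019 and 0.023. As many as 108 genes lay within 0.25, so with 2 libraries such a likeness is not specific.

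Smad7, which binds the type I receptor and blocks Smad2 and Smad3, stood out among the members. Its value was 5.78 FPKM in WT against 22.5 in UUO urine, 3.90 times as high in the UUO library. The log2 difference was 1.79, or 2.61 above the median of annotated genes, and 87.0% of the 9831 genes had a smaller difference. In rank Smad7 went from percentile 37.0 in WT to percentile 83.5 in UUO urine. In WT urine Smad7 was below Smad2, Smad3 and Smad4, and in UUO urine it was above all 3. The ratio of Smad7 to Smad3 was 0.365 in WT against 1.51 in UUO urine, that of Smad7 to Smad2 was 0.557 and 4.45, and that of Smad7 to Smad4 was 0.144 and 1.16. Ratios within a library do not depend on its scaling, but the ratio to Smad2 uses only its number-only entry. Both Smad2 entries summed to 11.9 in WT and 9.45 in UUO urine. Smad7 was still below that sum in WT and above it in UUO urine, by a smaller ratio than 4.45. The entries of Smad3 and Smad4 held only part of the FPKM at their loci, as given further on. The ratios to these genes are therefore uncertain as well.

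Smad6, the other inhibitory Smad, which acts mainly on the BMP branch, was 9.22 in WT against 16.3 in UUO urine. Smad1, a carrier of BMP signals that Smad6 restrains, was 20.9 in WT against 4.14 in UUO urine, so that the ratio of Smad6 to Smad1 was 0.441 and 3.94. Over the 8 Smad genes, the inhibitory pair Smad6 and Smad7 held 14.6% of the summed FPKM in WT and 46.1% in UUO urine. Smad1, Smad5 and Smad9, the carriers of BMP signals, held 20.4% and 7.20%. Smad5 and Smad9 were listed at 0 in WT and at 1.49 and 0.443 in UUO urine. The WT share of this class is thus that of Smad1 alone, which held 4.92% in UUO urine. Smad2 with Smad3 held 25.6% and 23.7%, and Smad4 held 39.3% and 23.0%. Only the number-only entry of Smad2 is counted in these shares. This grouping of the Smads was chosen after the values were seen.

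**Figure D2:**
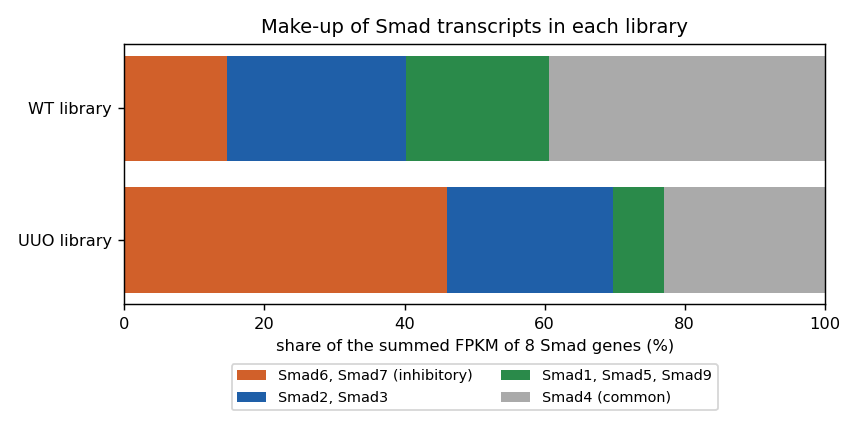
Stacked bars give the share of the summed FPKM of 8 Smad genes, in percent, held by each class of Smad in the WT and the UUO library. Smad2 is counted by its number-only entry alone. In the WT bar the class of Smad1, Smad5 and Smad9 is Smad1 alone, since the others were listed at 0. The inhibitory class takes 14.6% of the WT bar and 46.1% of the UUO bar, and the class of Smad2 and Smad3 takes a like part of both.

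Scaling between the libraries turned the sign of Smad3 and, by the median ratio, of Tgfb1, but not that of any other member. Equal sums over all features multiplies UUO values by 1.54, the 75th percentile of annotated genes by 1.79 and the median ratio of annotated genes by 1.91. Under each of these 3 scalings 4 members were at least 2-fold higher (Smad7, Tgfbr1, Tgfbr2 and Tgfb3) and 0 were at least 2-fold lower, of 9 over the limit, since the scaled Tgfb3 value also passed it. The shares of all annotated genes moved likewise. Under equal sums 34.9% of them were higher and 20.9% lower, by the 75th percentile 38.5% and 16.8%, and by the median ratio 40.6% and 14.9%. The 4 of 9 are thus near the background as well. Smad7 was between 1.59 and 2.70 over all 7 alternatives tried, and Tgfbr1 between 1.65 and 3.76. The 2 alternatives that change only the filter leave the value of a single gene as it is. Smad3 ranged from -1.32 to 0.81, Tgfb1 from -0.87 to 0.04 and Tgfb2 from -1.34 to 0.55. Smad2 and Smad4 were below 0 throughout, at -0.09 and -0.12 by the median ratio.

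**Figure D3:**
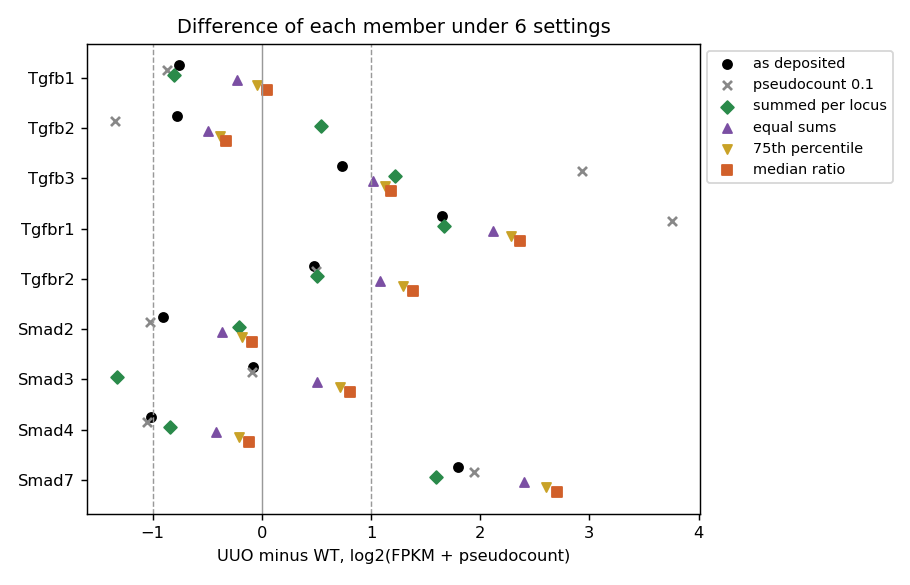
Difference of each member, UUO minus WT on the log2 scale, as deposited and under 5 alternatives, each with its own symbol. Dashed lines mark 2-fold in each direction. All symbols of Smad7 and Tgfbr1 lie to the right of the upper dashed line, and those of Smad3 lie on both sides of 0.

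The listed loci show how much of each value is shared with other entries. Smad7 (chromosome 18, 70530558 to 70558927) shares its locus with 4 noncoding database entries and held 82.2% of the summed FPKM there in WT and 96.9% in UUO urine. Summed over that locus, FPKM was 7.04 and 23.2. Tgfbr2 (chromosome 8, 123583224 to 123671591) held 97.9% and 96.3% of its locus. For these genes the entry and the locus tell the same direction.

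The loci of Smad3, Smad4 and Tgfb2 do not separate so well. The Smad3 locus (chromosome 8, 68059763 to 68398279) has 16 entries, among them the gene Aagab with 58.8 FPKM in WT against 8.26 FPKM in UUO urine. Smad3 held 20.3% of it in WT and 48.6% in UUO urine, and its sum was 78.2 and 30.7. The Smad4 locus (chromosome 18, 68386707 to 69490614) merges 72 entries, 8 of them number-only gene IDs, and Smad4 held 27.6% and 24.0%. At the Tgfb2 locus (chromosome 13, 109679866 to 109794105) Tgfb2 held 99.7% of the sum in WT but 21.2% in UUO urine, where noncoding entries held the rest. The locus sum of 1.90 in WT against 3.23 in UUO urine is therefore higher in UUO urine, opposite to Tgfb2 itself.

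Tgfb1 (chromosome 1, 83735372 to 83758473) shares its locus with the gene B9d2, which had an FPKM of 6.32 in WT and was listed at 0 in UUO urine. Tgfb1 held 54.6% of the locus in WT and 54.3% in UUO urine. The noncoding entry NONRATT000915 there had 0.414 FPKM in WT against 2.35 FPKM in UUO urine. Tgfb3 (chromosome 6, 119222051 to 119244499) and its 4 noncoding neighbours were all listed at 0 in WT. Smad2 (chromosome 18, 71672981 to 71734983) has 7 entries at its locus, with a sum of 12.3 in WT against 10.5 in UUO urine.

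**Figure D4:**
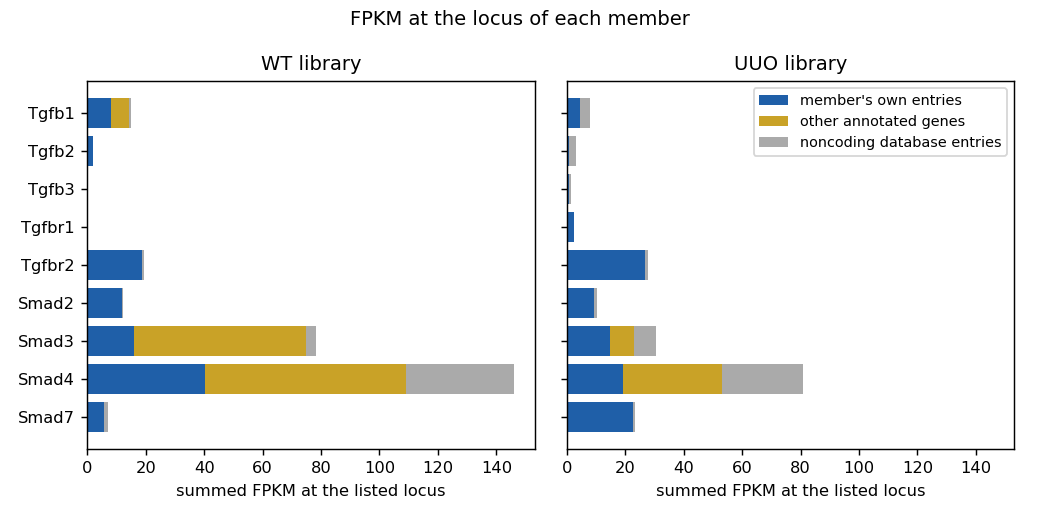
Summed FPKM at the listed locus of each member in the WT library (left) and the UUO library (right), divided into the member's own entries, other annotated genes and noncoding database entries. Smad7, Tgfbr1 and Tgfbr2 bars are mostly the member's own, while most of the Smad4 bar belongs to other entries.

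Of 50 other genes of the TGF-beta superfamily pathway, 46 had an entry and 39 passed the limit. Of these 10 were at least 2-fold higher and 11 at least 2-fold lower in UUO urine, or 25.6% and 28.2%, beside 25.6% and 36.6% of all annotated genes. Of the 10 that were higher, 7 passed the limit only through the UUO library. Their median log2 difference was 0.18, against -0.51 over all annotated genes tested. No theme is read from the list.

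Among the other ligands over the limit, 2 of 6 were at least 2-fold higher, Bmp7 and Inhba, and 0 were lower, beside 25.6% and 36.6% of all annotated genes. Both were listed at 0 in WT and passed only through the UUO library, so they could not be lower. Inhba, a subunit of activin, was at 1.07 in UUO urine and, like Bmp7, was chosen after its values were seen. Gdf15, a stress-induced cytokine, was 22.9 in WT against 32.0 in UUO urine, Bmp2 was 7.80 and 12.7, and Bmp6 was 5.09 and 6.08. Bmp7, which opposes TGF-beta in the kidney, was listed at 20.5 in UUO urine.

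Among the genes that store and release latent TGF-beta, Furin, the protease that cuts the precursor, was 28.3 in WT against 52.7 in UUO urine. Itgb6, whose integrin releases the active ligand, was 4.18 and 16.6, with a log2 difference of 1.76. Thbs1, thrombospondin 1, another activator, was 2.17 and 19.1, with a log2 difference of 2.67. Thbs1 is also abundant in platelets, and all 5 platelet markers were listed at 0 in WT. The part of platelets in the Thbs1 difference was not tested. Itgb6 and Thbs1 were the 2 of 7 genes of this role at least 2-fold higher, and Ltbp4, a latent TGF-beta binding protein, was the 1 lower. These are 28.6% and 14.3%, beside 25.6% and 36.6% of all annotated genes, and are not a result about this role.

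Among the other receptors, Bmpr2 was 6.28 in WT against 7.26 in UUO urine, Acvr1b, an activin type I receptor whose direction turned under each scaling, 7.26 and 5.08, and Bmpr1a 8.89 and 3.55. The Bmpr1a locus merges 137 entries, and its sum was higher in UUO urine, by 0.73 on the log2 scale. Of the Smad partners, Crebbp, a histone acetyltransferase that Smads recruit, was 20.9 and 9.61, Zfyve9 (SARA), which presents Smad2 and Smad3 to the receptor, was 18.9 and 5.14, and Sp1 was 14.9 and 7.87. All 3 were lower in UUO urine on the deposited scale, Sp1 by less than 2-fold. The 2 of 3 at least 2-fold lower are 66.7%, beside 36.6% of all annotated genes. With so few genes this is not a result about the role. By the median ratio Sp1 was level, with a log2 difference of 0.01. Crebbp and Zfyve9 stayed lower under each scaling, but by the median ratio they were within 2-fold, at -0.18 and -0.88.

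Of the 11 negative regulators other than Smads, 3 were at least 2-fold higher and 4 lower. These are 27.3% and 36.4%, near the 25.6% and 36.6% of all annotated genes. Of the 3 that were higher, 2 were listed at 0 in WT and passed only through the UUO library. The most abundant were lower: Ppm1a, a phosphatase of Smad2 and Smad3, was 73.8 in WT against 18.1 in UUO urine, Fkbp1a, which holds the type I receptor inactive, was 45.4 and 20.3, and Smurf1, a ubiquitin ligase that acts with Smad7, was 15.1 and 5.86. Their log2 differences were -1.97, -1.12 and -1.23. The Smurf1 locus merges 83 entries, and Smurf1 held only 2.70% of its summed FPKM in WT and 1.42% in UUO urine. Summed over that locus, the log2 difference was -0.43. Smurf2, a ligase of the same kind, was 6.96 and 7.13. These differences shrank under the scalings. By the median ratio Ppm1a was at -1.08, still past 2-fold, while Smurf1 at -0.40 and Fkbp1a at -0.22 were not.

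Of the 22 target genes, all had an entry and 17 passed the limit. At least 2-fold higher were 10 of them (58.8%, beside 25.6% of all annotated genes), and 1 was lower, Id2. The count has little weight, since 9 of the 17 were under 1 FPKM in WT, 7 of them listed at 0, and passed only through the UUO library. These 9 are all among the 10 that were higher, and Id1 was the other one. Of all annotated genes, 11.6% were listed at 0 in WT with an FPKM of at least 1 in UUO urine, against 31.8% of the targets. The median log2 difference over the 17 was 1.93. With FPKM summed per locus it was 0.23 over the same 17 genes and 0.56 over the 19 that then passed the limit, and over all 22 targets with no limit it was 0.62.

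Of the 10 targets above 0 in both libraries, 3 were at least 2-fold higher (Id1, Timp1 and Fn1) and 1, Id2, was at least 2-fold lower. Over all annotated genes over the limit, not held to be above 0 in both, the shares were 25.6% and 36.6%. Timp1 and Fn1 were under 1 FPKM in WT and passed only through the UUO library, so Id1 was the 1 higher target detected in both. Id1, an inhibitor of differentiation that BMP signals induce, was 84.9 in WT against 186 in UUO urine, while Id2 was 62.7 and 22.1 and Id3 was 47.5 and 51.1. The sum over the Id3 locus was slightly lower in UUO urine, by 0.16 on the log2 scale. Pmepa1, a feedback inhibitor induced by TGF-beta, was 25.1 and 25.7, and Cdkn1a, the growth arrest gene p21, was 98.6 and 54.7, and turned to higher in UUO urine by the median ratio, at 0.08 on the log2 scale. The collagen genes Col3a1 and Col1a1 were 17.8 and 13.4, and 9.20 and 13.6, and Col3a1 turned to higher in UUO urine under each scaling. Fn1 (fibronectin), a matrix protein chosen after its values were seen, was 0.921 and 6.33, a log2 difference of 1.93, and its locus sum was higher by 2.61. Ccn2 (CTGF) was 4.06 and 4.92, but its locus sum was 16.6 in WT against 4.92 in UUO urine, lower by 1.57 on the log2 scale. Timp1, an inhibitor of matrix proteases, was 0.801 and 8.89, but its locus of 26 entries was lower in UUO urine when summed, by 0.67 on the log2 scale. The angiogenic matrix protein gene Ccn1 was listed at 0 in WT and at 10.8 in UUO urine.

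**Figure D5:**
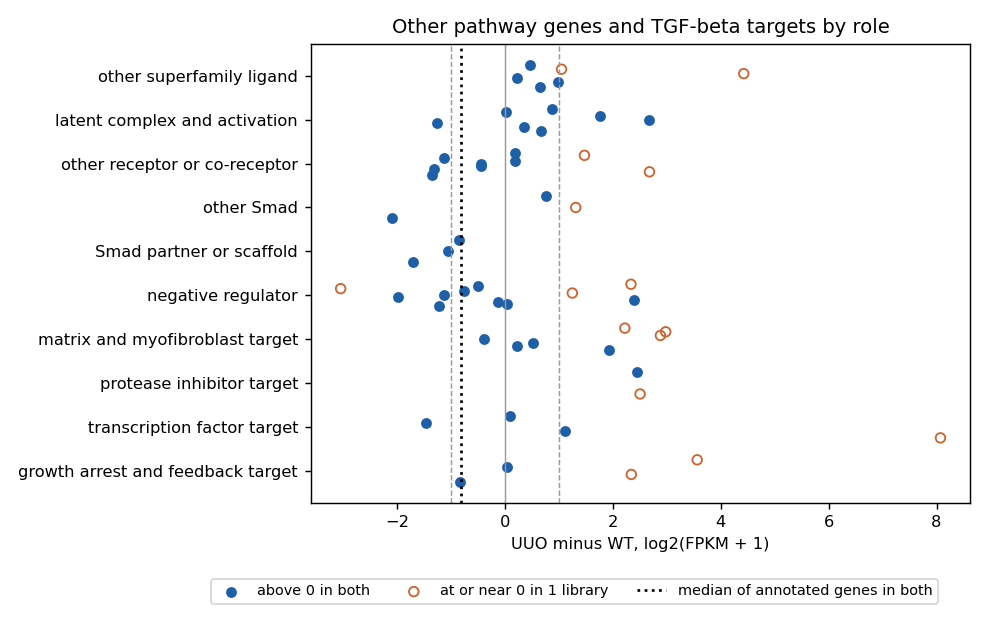
Difference of each gene over the limit, UUO minus WT on the log2(FPKM + 1) scale, for other pathway genes and targets, by role. Open circles are genes listed at 0 in WT urine or, for Nog, nearly 0 in UUO urine, dashed lines mark 2-fold, and the dotted line is the median of annotated genes detected in both libraries, at -0.81. The 3 Smad partners lie to the left of this line, Sp1 only just, at -0.84. Genes listed at 0 in WT passed the limit only through the UUO library, so their open circles had to lie to the right.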

How the data were processed

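RNA from rat urine was sequenced in 2 libraries, 1 per group. Per the submitters' processing notes, the tools were Bowtie2 2.0.6, TopHat2 2.0.9, Cufflinks 2.1.1 and Cuffdiff 2.1.1, and the build was rn5. The authors deposited 1 FPKM value per feature and library (fragments divided by transcript length in kilobases and by the library total), in a table with the layout of Cuffdiff. The total used for scaling and the use of strand in quantification are not given in the sources used here. The table's other columns hold the authors' log2 ratio, test statistic, p-value, q-value and significance call, and were not used.

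The conditions are named UrRf and Urc there, which are not sample titles. UrRf was read as UUO and Urc as WT, from the series title and the headings of the study's urine lists. The names alone do not settle this, and every direction would be opposite if they were exchanged.

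Of 16484 number-only gene IDs, 16329 matched a symbol in the RefSeq gene table of assembly GRCr8, and these are called annotated genes. Coordinates are those of the deposited table. Changes are differences of log2(FPKM + 1), UUO minus WT, which understate the change of low genes. They were counted at 1 or more in size among genes that reached 1 FPKM in WT or UUO urine. With 1 library per group there is no test and no p-value. FPKM values of assembled features alone at their locus, spanning 400 to 1200 bp, were fitted as whole fragments: 93.5% of 186 WT values and 99.3% of 3530 UUO values came within 0.1 of a whole number. The scaling step was tested on simulated data.

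The members and lists were chosen with earlier results of these data known. The named genes are all members, the 3 genes with the greatest mean log2(FPKM + 1) of each role in both lists, and the 3 protein-coding genes nearest to the most abundant member. Any others were chosen after their values were seen. For 1 target gene that this rule names, no value is reported here. Alternatives were another pseudocount, filter, detection limit and scaling, and sums over each locus. After the data were seen, medians were also taken over a fixed set of genes. Python 3.11.15, pandas 2.3.3 and numpy 2.4.6 were used.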

Additional observations from a re-analysis of the deposited data

How the results depend on the processing

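No paired analysis was possible because there is 1 library on each side. A log2 difference was taken as unchanged when it kept its sign and its side of 1, and a count when it stayed within 1.5 times. The number of members at least 2-fold higher was 2 in the report, 1 with FPKM of at least 5, where 14.0% of annotated genes were higher, and 4 under equal sums, the median ratio and the 75th percentile, where 34.9%, 40.6% and 38.5% were. The number at least 2-fold lower was 1 in the report, 3 with a pseudocount of 0.1, where 39.5% of annotated genes were lower, and 0 under the same 3 scalings, where 20.9%, 14.9% and 16.8% were. The median over the members was -0.42 as deposited, over 8 genes. Tgfb3 also passed the limit under the scalings and per locus, and over these 9 genes it was 0.51 under equal sums, 0.71 by the 75th percentile, 0.81 by the median ratio and 0.50 with FPKM summed per locus. Over the same 8 genes as deposited, a comparison added after the data were seen, it was 0.14, 0.34, 0.43 and 0.15. The median of all annotated genes over the limit moved likewise, from -0.51 as deposited to 0.15, 0.38, 0.51 and -0.11 in the same order. The members' change of sign under the scalings is thus not a result about the pathway. The median of the other pathway genes was -0.053 with FPKM of at least 5. The median of the targets was 0.56 summed per locus over 19 genes, 0.23 over the same 17 as deposited, and 0.62 over all 22 with no filter. Detected members numbered 7 in each library, while 6 in WT and 5 in UUO urine reached 5 FPKM, and 8 and 9 were above 0. Depth limits Tgfb3, Tgfb2 and Tgfbr1, whose lower values are near or under that of 3 fragments on a transcript of 2000 bases.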

Other observations

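Further genes of the lists that lie outside the naming rule were chosen after their values were seen. Tgif1, a co-repressor of Smads, had 1.52 FPKM in WT against 12.2 FPKM in UUO urine. Eng (endoglin), a co-receptor of endothelial cells, was listed at 0 in WT and at 5.41 in UUO urine, and Tgfbr3 (betaglycan), the other co-receptor, was 2.61 and 0.413. Dcn (decorin), a matrix protein that binds TGF-beta, was listed at 0 in WT and at 4.05 in UUO urine. Acta2 and Tagln, genes of myofibroblasts and smooth muscle, were listed at 0 in WT and at 6.37 and 6.89 in UUO urine, but the sum over the Tagln locus differed by only 0.23 on the log2 scale. Junb, an immediate early gene that TGF-beta also induces, was listed at 0 in WT and at 268 in UUO urine, while the sum over its locus differed by 2.62, because other entries there held WT signal. Col1a2 was listed at 0 in both libraries, although Col1a1, the other chain of the same collagen, was detected in both.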
